A study of Mus musculus with 6 samples.

Results

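A group of 8 genes whose products dampen T cell responses, most of them as enzymes, was followed in bone marrow-derived dendritic cells (BMDCs) with and without Nfkb2, which encodes the noncanonical NF-kB precursor p100. They were taken from a list of names with no cut on measured values, though with earlier results of these data known: Ido1, Ido2, Kynu, Il4i1, Arg2, Entpd1, Nt5e and Il10, 8 of the 56748 Ensembl genes counted in each library. The polyA RNA of 3 WT and 3 Nfkb2-/- BMDC cultures was sequenced. Bone marrow from femur and tibia had been grown with 20 ng/mL GM-CSF for 5 days and with 20 ng/mL GM-CSF plus 10 ng/mL IL-4 for 4 more, 9 days in all, and no stimulus was added in either genotype (0 h). The knockout is global, so that every cell of the culture carried it and not the dendritic cells alone. The sources used here give no age or sex for the marrow donors. The study calls the libraries of a genotype independent biological replicates, without saying whether each came from its own mouse, and p-values measure only the spread between these libraries.

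Dendritic cells can restrain T cells by depleting amino acids and by making suppressive metabolites. Indoleamine 2,3-dioxygenase, encoded by Ido1 and Ido2, opens the indole ring of tryptophan at the first step of the kynurenine pathway, kynureninase (Kynu) acts further down it, and the secreted oxidase Il4i1 consumes aromatic amino acids. Arginase 2 (Arg2) is the mitochondrial enzyme that splits arginine. CD39 (Entpd1) and CD73 (Nt5e) sit at the cell surface and turn extracellular ATP, an alarm signal, stepwise into adenosine. Il10 is the best known inhibitory cytokine of myeloid cells.

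The libraries held 29863927 to 55623068 counts. Values are given as counts or as CPM, counts scaled to a common library total after trimmed mean of M-values (TMM) normalization, and 1 count equalled 0.0187 to 0.0344 CPM. Nfkb2 itself stood at 215, 154 and 355 CPM in the WT libraries and at 44.8, 32.3 and 32.6 CPM in the Nfkb2-/- libraries, lower by 2.72 ± 0.33 on the log2 scale (SE; Benjamini-Hochberg adjusted p = 0.0307, edgeR's quasi-likelihood test), as the labels require. Of 10 dendritic cell genes examined, Cd74 stood at 1870 to 3691 CPM and Irf4 at 710 to 1338 CPM, while Flt3 (12.1 to 17.0 CPM) and Cd209a (3.51 to 26.9 CPM) were the lowest. A pair of libraries stood apart. All 10 macrophage markers examined were at their lowest in WT replicate 3, where their summed level was 178 CPM against 642 to 1189 CPM elsewhere. That library was the lowest for 26.0% and the highest for 29.4% of tested genes averaging 2 CPM or more. In Nfkb2-/- replicate 1, 47952 genes were detected with 1 count or more, while the others had 27692 to 33841, and 57.1% of the tested genes under 2 CPM were highest there.

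None of the 8 genes met the criterion for a difference between genotypes, an adjusted p under 0.05 with a change over 1.2-fold. All 8 passed the filter of 50 counts over the 6 libraries. Of the 21849 genes tested, 1.14% met that criterion, 0.453% with a higher and 0.682% with a lower level in Nfkb2-/- cells. Only Arg2 had an unadjusted p under 0.05, which 17.1% of all tested genes had (8.04% with a lower level). The levels of Ido1 and Arg2 did not overlap between genotypes, and both were lower in the Nfkb2-/- libraries. That is 2 of 8, and 24.7% of all tested genes were without overlap in either direction (12.0% lower). The median log2 difference of the 8 genes was 0.05, beside 0.08 over all genes tested. Of all tested genes, 12179 had a higher and 9670 a lower estimate in Nfkb2-/- cells, the background for the counts of directions below.

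**Figure D1:**
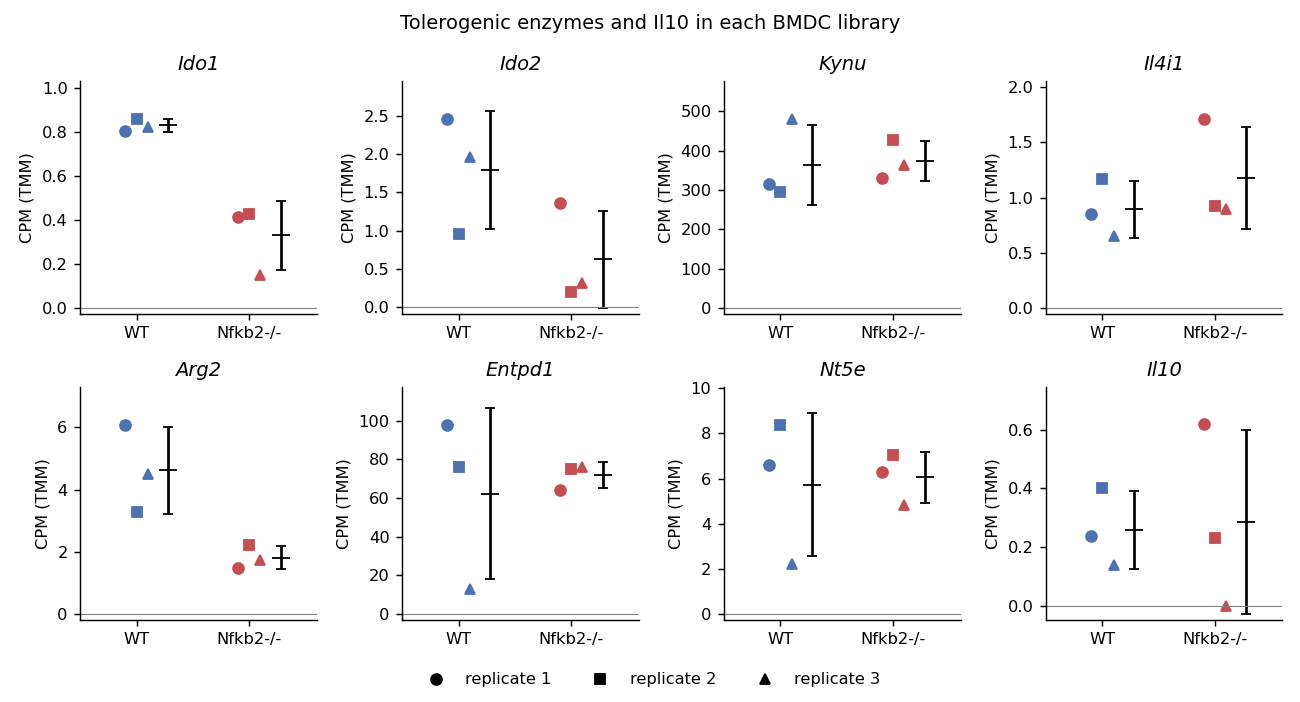
CPM of each gene (vertical axis, linear, a scale of its own in each panel) in the 3 WT libraries (blue) and the 3 Nfkb2-/- libraries (red), with the replicate number as symbol and the mean ± SD as black bars. Ido1 and Arg2 were lower in every Nfkb2-/- library than in any WT library, while Entpd1 and Nt5e were at their lowest in WT replicate 3.

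**Figure D2:**
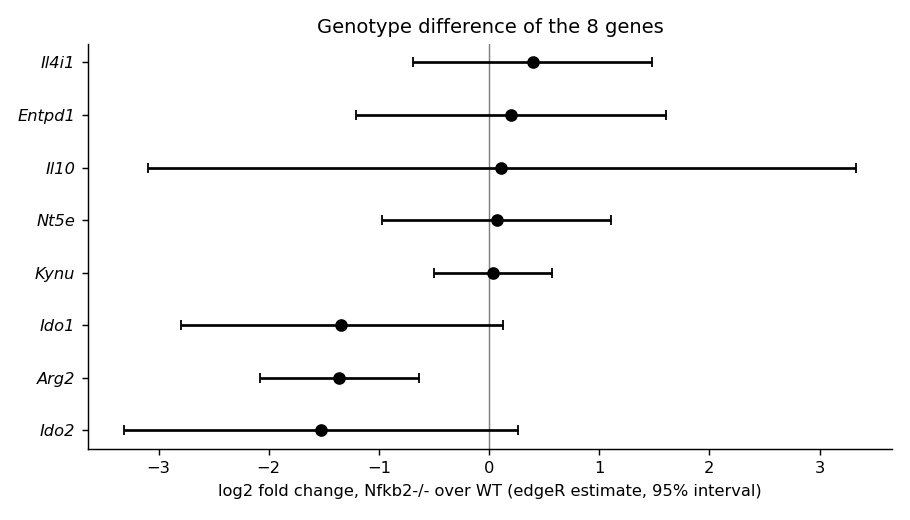
Estimated log2 fold change of the 8 genes, Nfkb2-/- over WT (horizontal axis), with 95% intervals as bars, from edgeR's fit over all tested genes. Only the interval of Arg2, from -2.08 to -0.64, stays clear of 0.

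The 8 genes covered a wide range of levels. Per kilobase of exon, Kynu led in WT BMDCs with 59.2 ± 16.6 CPM per kb (mean ± SD, n = 3), followed by Entpd1 with 11.2 ± 7.89 and Arg2 with 3.24 ± 0.976. The library ranges of Kynu and Entpd1 were separate, but those of Entpd1 and Arg2 overlapped. Nt5e (0.667), Ido2 (0.493) and Ido1 (0.456) followed with overlapping ranges between neighbours, and Il4i1 (0.219) and Il10 (0.197) were lowest. The Nfkb2-/- libraries began with the same order per kilobase, Kynu at 60.8 ± 8.13, Entpd1 at 12.9 ± 1.19, Arg2 at 1.27 ± 0.259 and Nt5e at 0.703 ± 0.130, with separate ranges at each step. Il4i1 (0.289), Il10 (0.217), Ido1 (0.181) and Ido2 (0.172) came last there, and each overlapped with the next. Without Nfkb2-/- replicate 1, Il10 was at 0.0881 and Ido2 at 0.0709 CPM per kb, and Il10 then lay below Ido1 (0.158). Divided by the longest transcript in place of all exons, the WT levels were 131 for Kynu, 1.44 for Nt5e and 0.392 for Il4i1. By exonic length, 3 of the 8 genes reached a mean level of 1 CPM per kb over the libraries, and by longest transcript 4 did.

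Transcripts of the enzymes that open the tryptophan ring were scarce in these unstimulated cells. Ido1 (ENSMUSG00000031551; GRCm38 chromosome 8, 24584136 to 24597009, minus strand) had 34, 28 and 24 counts in the WT libraries and 14, 13 and 8 counts in the Nfkb2-/- libraries. These counts correspond to 0.807, 0.861 and 0.826 CPM in WT and to 0.414, 0.429 and 0.150 CPM without Nfkb2. The WT libraries lay close together and above every Nfkb2-/- library. The estimate was lower by 1.34 ± 0.63 on the log2 scale (SE), with a 95% interval from -2.80 to 0.13 and an adjusted p of 0.340 in edgeR's quasi-likelihood test. An exact two-sided permutation test of the 6 CPM values gave p = 0.1, the smallest value that 3 against 3 libraries allow.

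Ido2 (ENSMUSG00000031549; chromosome 8, 24531892 to 24576333, minus strand), the neighbouring paralog, had 104, 31 and 57 counts in WT and 46, 6 and 17 counts in Nfkb2-/- cells. Its levels were 2.47, 0.954 and 1.96 CPM in WT and 1.36, 0.198 and 0.318 CPM without Nfkb2. Nfkb2-/- replicate 1, the library with many weakly detected genes, fell among the WT values, and the other two lay below them. The estimate was -1.53 ± 0.76 on the log2 scale (SE; 95% interval -3.31 to 0.26; adjusted p = 0.371, edgeR). Without that library the estimate was -2.76 with an adjusted p of 0.102. The part of the weakly detected genes of that library in the Ido2 value was not tested.

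Since Ido1 and Ido2 lie side by side and are related in sequence, their coding sequences were compared for stretches a read could not assign. The longest run that both share, in coding sequences of 1224 and 1218 bases, spans only bases 238 to 252 of each. Reads that reach past either end of it cover differing bases, and the run is shown as the longest identical stretch:
Ido1 and Ido2, coding bases 238 to 252: cagcgcctggcacac
The untranslated exons, which the counts also cover, were not compared. Per kilobase, Ido2 over Ido1 was 1.54, 0.556 and 1.19 in the WT libraries and 1.65, 0.232 and 1.07 in the Nfkb2-/- libraries. Neither gene was thus the higher one throughout in either genotype.

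The kynureninase transcript was the most abundant of the 8 genes, with overlapping levels in both genotypes. Kynu (ENSMUSG00000026866; chromosome 2, 43555329 to 43682715, plus strand) stood at 316, 295 and 481 CPM in WT and at 330, 428 and 363 CPM in Nfkb2-/- BMDCs, on 9588 to 19387 counts per library. WT replicate 3 was the highest and WT replicate 2 the lowest of the 6, so that the WT values enclosed all Nfkb2-/- values. The difference was 0.04 ± 0.23 on the log2 scale (SE), and its 95% interval, from -0.50 to 0.57, leaves room for moderate changes in either direction. Per kilobase, Kynu exceeded Ido2 by 75.8-fold or more in every library.

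Other genes of the tryptophan route, from a list of 14 genes of which 11 were tested, included none that met the criterion, and 6 had a higher and 5 a lower estimate, with a median of 0.08. Of the 11, 5 had an unadjusted p under 0.05. Kynurenine 3-monooxygenase (Kmo), which makes the hydroxylated substrate that kynureninase cleaves, stood at 12.2, 37.6 and 3.92 CPM in WT and at 93.6, 112 and 115 CPM in Nfkb2-/- cells. Slc7a5, the tryptophan-carrying subunit of the large neutral amino acid transporter, stood at 7.97, 22.4 and 8.43 CPM in WT and at 51.9, 55.0 and 71.1 CPM without Nfkb2. Both genes were thus above every WT library in every Nfkb2-/- library. Their estimates, 2.58 ± 0.71 for Kmo and 2.20 ± 0.42 for Slc7a5 on the log2 scale (SE), missed the criterion in edgeR (adjusted p = 0.132 and 0.0611) and met it in DESeq2 (adjusted p = 0.00122 and 1.48e-05), where 8.60% of tested genes were called. Slc3a2, the partner subunit of Slc7a5, differed by -0.10 on the log2 scale (adjusted p = 0.822, edgeR) and Wars, the tryptophanyl-tRNA synthetase, by -0.36 (adjusted p = 0.275, edgeR). Afmid, the formamidase that follows Ido1, had an estimate of -0.49 without overlap (adjusted p = 0.230, edgeR), and Haao, the dioxygenase after Kynu, one of 0.08; these 2 were chosen after their values were seen. The liver-type enzyme Tdo2, chosen likewise, stayed between 1.25 and 2.73 CPM.

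Kynurenines act on cells in part through the aryl hydrocarbon receptor. Of 9 genes of that receptor, its partners and its targets, 8 were tested and none met the criterion or had an unadjusted p under 0.05. The receptor gene Ahr differed by -0.04 on the log2 scale, its partner Arnt by -0.14 and its target Tiparp by 0.13, with adjusted p-values from 0.642 to 0.958 (edgeR). Cyp1a1, the classical target, also named after its values were seen, had 40 counts in all and was below the filter.

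**Figure D3:**
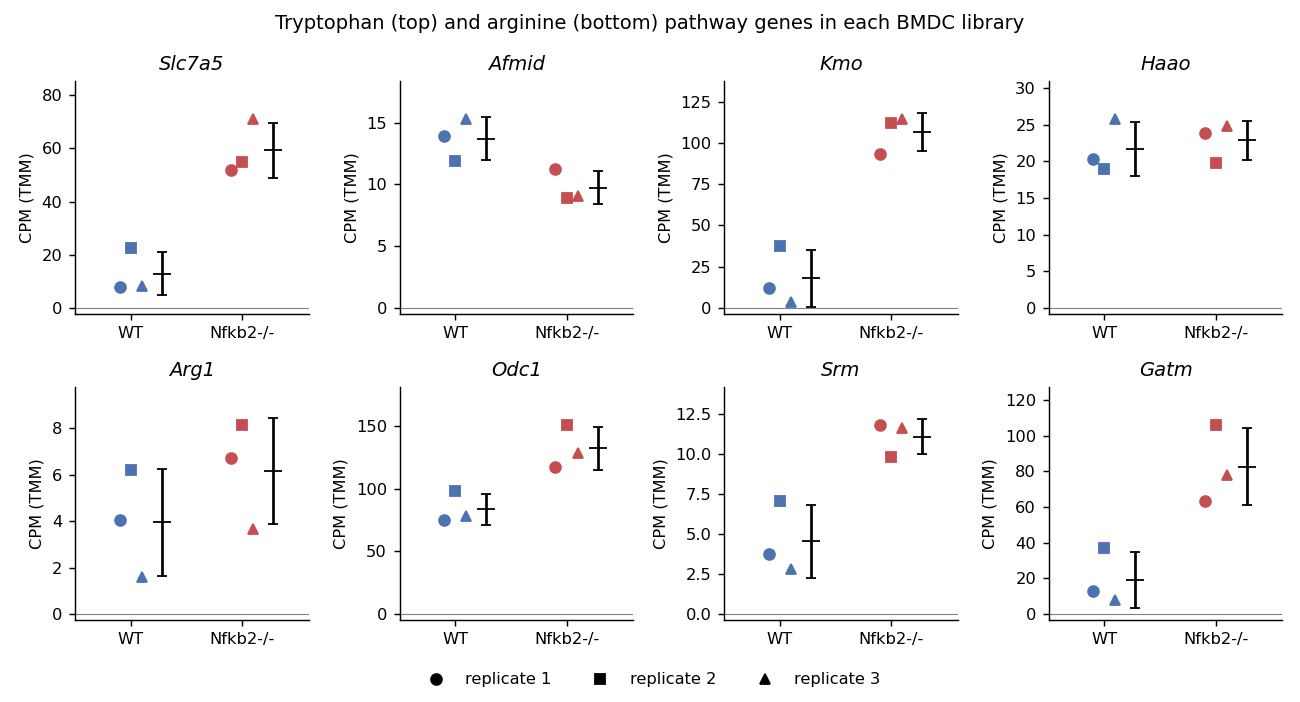
CPM (vertical axis, linear, a scale of its own in each panel) of 4 genes of the tryptophan route (top) and 4 of the arginine route (bottom) in WT (blue) and Nfkb2-/- (red) libraries, with replicate number as symbol and mean ± SD as black bars. Slc7a5, Kmo, Odc1, Srm and Gatm were higher in every Nfkb2-/- library than in any WT library. Afmid was lower in each of them, and Haao and Arg1 overlapped.

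The amino acid oxidase gene Il4i1 (ENSMUSG00000074141; chromosome 7, 44816387 to 44840809, plus strand) had 36, 38 and 19 counts in WT and 58, 28 and 48 counts in Nfkb2-/- libraries. Its levels were 0.854, 1.17 and 0.654 CPM in WT and 1.71, 0.923 and 0.898 CPM without Nfkb2. Nfkb2-/- replicate 1 was the highest library and the other two lay within the WT range, and the estimate was 0.40 ± 0.46 on the log2 scale (SE; 95% interval -0.69 to 1.48; adjusted p = 0.700, edgeR). Of its 4080 exonic bases, 3423 are also exonic in Tbc1d17 on the opposite strand, a gene with 801 to 2431 counts per library. Whether the counting used strand is not given in the sources used here, so these low counts are uncertain.

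Arginase 2 showed the clearest difference among the 8 genes. Arg2 (ENSMUSG00000021125; chromosome 12, 79130777 to 79156301, plus strand) had 256, 107 and 131 counts in WT and 50, 67 and 93 counts in Nfkb2-/- libraries. Normalized, these were 6.07, 3.29 and 4.51 CPM in WT against 1.48, 2.21 and 1.74 CPM without Nfkb2, with means of 4.62 ± 1.39 and 1.81 ± 0.370 CPM (SD, n = 3). Every Nfkb2-/- library lay below every WT library. The estimate was lower by 1.36 ± 0.31 on the log2 scale (SE), with a 95% interval from -2.08 to -0.64, an unadjusted p of 0.00280 and an adjusted p of 0.0910 in edgeR's quasi-likelihood test. DESeq2, which called 8.60% of all tested genes (4.27% lower), gave an adjusted p of 0.00621 for the same counts, and leaving out WT replicate 2 gave 0.0370 in edgeR. Arg2 had the same direction in 15 of 15 alternatives, with adjusted p-values from 0.00484 to 0.329. Exons of Vti1b and Gm48780 on the opposite strand share 285 and 116 of its 1428 exonic bases. Vti1b had 587 to 1259 counts per library. Gm48780 had 21 to 85, with its highest count in WT replicate 1, as Arg2 did. The strand setting is not given, and how far reads of these exons enter the Arg2 counts was not tested.

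**Figure D4:**
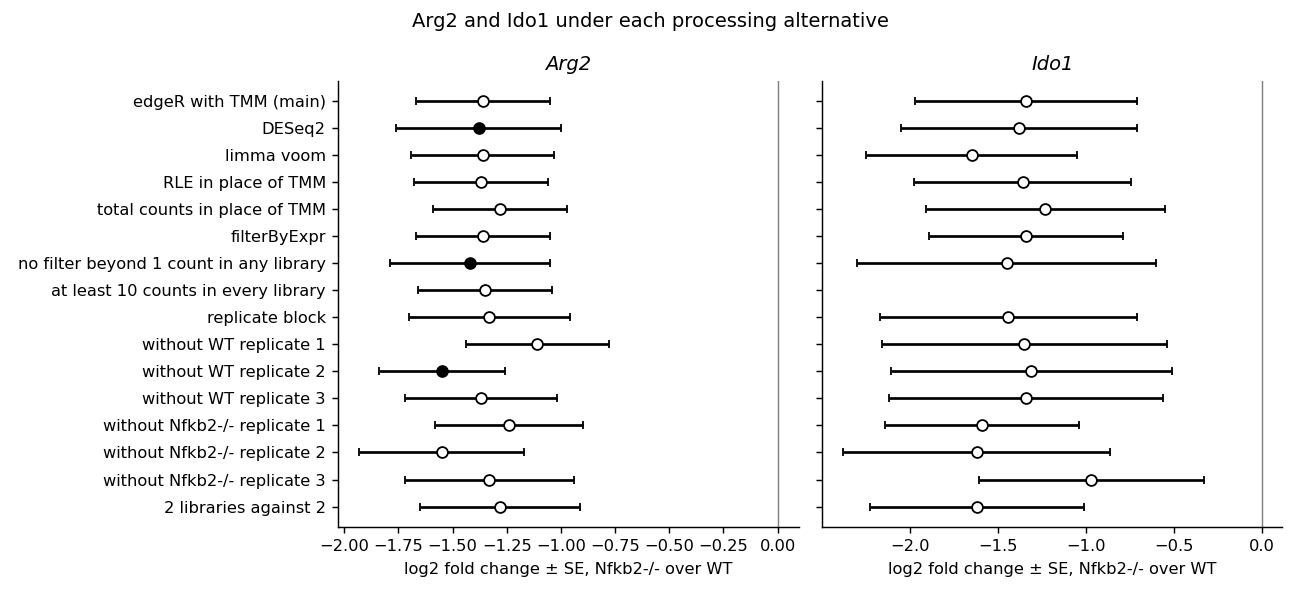
Log2 fold change ± SE (horizontal axis, Nfkb2-/- over WT) of Arg2 (left) and Ido1 (right) under each processing alternative (rows), with filled symbols for an adjusted p under 0.05. All estimates lie below 0, and filled symbols occur for Arg2 alone, with DESeq2, without the count filter and without WT replicate 2.

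Arg1 and Nos2, which share their substrate with Arg2, were likewise chosen after their values were seen. Arg1, the cytosolic arginase best known from macrophages given IL-4, had overlapping levels, with 4.03, 6.18 and 1.62 CPM in WT and 6.71, 8.14 and 3.65 CPM without Nfkb2 (log2 difference 0.64 ± 0.50, SE; adjusted p = 0.555, edgeR). Per kilobase, Arg1 over Arg2 was 0.426, 1.204 and 0.230 in the WT libraries and 2.91, 2.36 and 1.34 in the Nfkb2-/- libraries. These ratios did not overlap, but the Arg2 levels they are divided by did not overlap either. The longest run shared by the coding sequences of both arginases, of 1008 and 1065 bases, spans bases 559 to 570 of Arg1 and 580 to 591 of Arg2, and is given for the same reason as that of Ido1 and Ido2:
Arg1 and Arg2, shared coding bases: gtgtacattggc
Nos2, the inducible nitric oxide synthase, had 0.344 to 0.569 CPM in WT and 3.16, 0.791 and 0.505 CPM in Nfkb2-/- cells, with its highest value in Nfkb2-/- replicate 1 (adjusted p = 0.345, edgeR).

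Of 17 genes of arginine and polyamine metabolism, 16 were tested and none met the criterion. Of these, 13 had a higher and 3 a lower estimate, with a median of 0.65, and 6 had an unadjusted p under 0.05. Their 13 to 3 split was the same with relative log expression (RLE) and with total-count normalization, and the median was 0.35 without WT replicate 3. Among the most abundant, the differences on the log2 scale were 0.69 for Ass1, which makes the precursor of arginine, 0.66 for Odc1, which makes the first polyamine from the product of arginase, -0.12 for the polyamine acetylase Sat1 and 0.07 for the ornithine aminotransferase Oat. Their adjusted p-values were 0.193, 0.118, 0.735 and 0.864 (edgeR). Outside that selection, and chosen after their values were seen, Gatm, which diverts arginine into creatine, had 12.7, 36.8 and 7.95 CPM in WT and 63.4, 106 and 78.1 CPM in Nfkb2-/- libraries. Spermidine synthase (Srm), the arginine carrier Slc7a1 and the proline and ornithine enzyme Aldh18a1 likewise did not overlap, with log2 estimates of 1.29, 0.95 and 1.22. These 4 genes missed the criterion in edgeR (adjusted p from 0.0676 to 0.125) and met it in DESeq2 (0.00109 to 0.0136). Without overlap, 6 genes of the list were higher and 1 was lower, beside 12.7% and 12.0% of all tested genes. The lower gene was Asl (log2 estimate -0.53, adjusted p = 0.296, edgeR), also chosen after its values were seen.

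The 2 ectonucleotidase genes differed more among WT libraries than between genotypes. Entpd1 (ENSMUSG00000048120; chromosome 19, 40612366 to 40741602, plus strand) stood at 97.8, 76.2 and 13.0 CPM in WT and at 64.1, 75.1 and 76.1 CPM in Nfkb2-/- BMDCs. Nt5e (ENSMUSG00000032420; chromosome 9, 88327197 to 88372092, plus strand) stood at 6.60, 8.37 and 2.24 CPM in WT and at 6.29, 7.02 and 4.83 CPM in Nfkb2-/- BMDCs. WT replicate 3 was the lowest library for both genes, as it was for 26.0% of tested genes averaging 2 CPM or more. Its level was 6.67-fold below the mean of the other WT libraries for Entpd1 and 3.34-fold for Nt5e. The other 5 libraries lay close together. Genotype differences were 0.20 ± 0.60 for Entpd1 (95% interval -1.21 to 1.61) and 0.07 ± 0.44 for Nt5e (-0.97 to 1.11) on the log2 scale (SE), with adjusted p-values of 0.892 and 0.951 (edgeR). Without WT replicate 3 the estimates were -0.27 and -0.31, and neither met the criterion (adjusted p = 0.516 and 0.588).

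The macrophage markers were at their lowest in the same library. The 10 markers summed to 1006, 1189 and 178 CPM in WT and to 642, 723 and 870 CPM in Nfkb2-/- libraries, and each was 2.85- to 8.29-fold lower in WT replicate 3 than in the mean of the other WT libraries. Csf1r, the receptor of the macrophage growth factor, stood at 239, 250 and 37.2 CPM in WT and at 115 to 157 CPM without Nfkb2. Mature dendritic cell markers, 18 in all, summed to 16770, 12620 and 23520 CPM in WT and to 13730, 14240 and 13600 CPM in Nfkb2-/- libraries. Their sum was highest in WT replicate 3, and Ccl22, at 5357 to 10730 CPM, was its largest part in every library. In bulk RNA, fewer cells of a type and less RNA per cell cannot be told apart, and the part of macrophage content in the Entpd1 and Nt5e values was not tested. For the other 6 genes, the mean of WT replicates 1 and 2 over WT replicate 3 was 2.31 for Il10, 1.55 for Il4i1, 1.04 for Arg2, 1.01 for Ido1, 0.872 for Ido2 and 0.636 for Kynu.

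**Figure D5:**
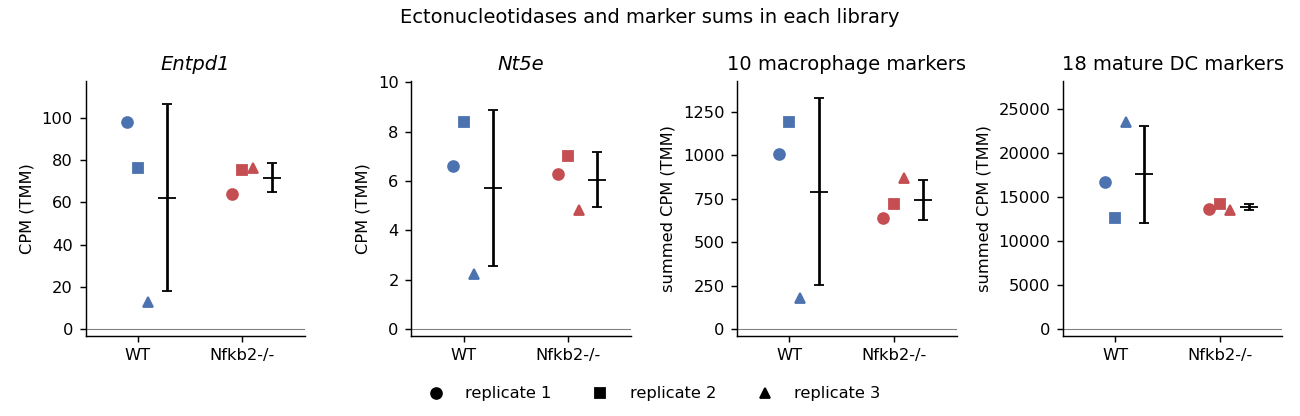
CPM of Entpd1 and Nt5e and summed CPM of the macrophage and mature dendritic cell (DC) markers (vertical axes, linear) in WT (blue) and Nfkb2-/- (red) libraries, with replicate number as symbol and mean ± SD as black bars. WT replicate 3 (blue triangle) is lowest for Entpd1, Nt5e and the macrophage sum and highest for the mature DC sum.

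Of the 8 genes, Entpd1, Nt5e and Il4i1 had a RefSeq (GRCm38.p6) promoter window. Each of them, Il4i1 included (0.654 CPM), was lowest in WT replicate 3. The windows of Entpd1, at 2 start sites, and of Nt5e are shown. They were searched on both strands for the NF-kB consensus, for the GCGTG core bound by the aryl hydrocarbon receptor and for the GC box GGGCGG. Capitals mark matches of the core (GCGTG) and of the GC box, the latter on the opposite strand (CCGCCC), which lie in overlapping pairs:
Entpd1 start site 1, chr19:40612116-40612415, plus strand: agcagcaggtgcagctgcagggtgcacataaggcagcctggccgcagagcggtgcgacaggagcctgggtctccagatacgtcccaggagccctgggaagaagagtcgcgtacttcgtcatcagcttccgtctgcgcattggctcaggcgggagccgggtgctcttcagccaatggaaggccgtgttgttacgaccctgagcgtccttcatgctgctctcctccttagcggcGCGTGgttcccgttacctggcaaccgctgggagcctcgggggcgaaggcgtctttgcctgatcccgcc
Entpd1 start site 2, chr19:40659520-40659819, plus strand: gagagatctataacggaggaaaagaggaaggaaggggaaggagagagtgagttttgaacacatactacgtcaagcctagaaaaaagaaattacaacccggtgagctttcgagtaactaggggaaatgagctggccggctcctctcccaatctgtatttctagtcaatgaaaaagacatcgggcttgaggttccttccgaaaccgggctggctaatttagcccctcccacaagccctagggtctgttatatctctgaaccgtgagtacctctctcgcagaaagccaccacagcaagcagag
Nt5e, chr9:88327359-88327658, plus strand: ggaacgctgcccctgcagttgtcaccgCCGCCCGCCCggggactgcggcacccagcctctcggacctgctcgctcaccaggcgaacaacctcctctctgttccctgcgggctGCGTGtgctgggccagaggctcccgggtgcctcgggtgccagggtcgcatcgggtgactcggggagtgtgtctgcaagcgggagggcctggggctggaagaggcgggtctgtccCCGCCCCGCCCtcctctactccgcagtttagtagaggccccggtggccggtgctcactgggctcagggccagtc
The aryl hydrocarbon receptor core occurred once at the first Entpd1 start site, 18 bases before it, and once in Nt5e, 138 bases before the start. Nt5e held 4 GC boxes, and Entpd1 had none at either site. The NF-kB consensus was in none of the 3 windows shown. Over all 32851 promoter windows, 32.4% held the core, 35.7% the GC box and 4.51% the NF-kB consensus, and all 3 windows of Nfkb2 itself held the last. The Il4i1 window, not printed, held 1 GC box and no match of the other motifs. Base composition differed between the windows, with 64.0% and 48.7% G or C at the Entpd1 sites and 71.0% at Nt5e. A match describes the letters and does not show a bound site.

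Entpd1 lies on chromosome 19, 5.56 Mb before Nfkb2. Its 3 Nfkb2-/- libraries spanned 64.1 to 76.1 CPM, inside the WT range. Per kilobase, Entpd1 exceeded Nt5e 8.99- to 22.9-fold in WT and 15.7- to 24.3-fold in Nfkb2-/- libraries, so that the first enzyme of the cascade had the higher transcript level in every library.

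Of 23 further genes that handle extracellular ATP and adenosine, 21 were tested and none met the criterion. Of these, 16 had a higher and 5 a lower estimate, with a median of 0.39, and 4 had an unadjusted p under 0.05. Without WT replicate 3 the split was 11 to 10 and the median 0.15. The adenosine receptor gene Adora2a, which carries the inhibitory signal of adenosine, stood at 57.8, 49.5 and 95.7 CPM in WT and at 35.2, 28.4 and 26.9 CPM in Nfkb2-/- libraries, without overlap. Its estimate was lower by 1.16 ± 0.27 on the log2 scale (SE) and missed the criterion in edgeR (adjusted p = 0.0928) but not in DESeq2 (0.00225). Dpp4, the surface protein that anchors adenosine deaminase in some species, stood at 60.4, 98.3 and 108 CPM in WT and at 160, 151 and 156 CPM without Nfkb2 (adjusted p = 0.135 in edgeR and 0.0259 in DESeq2). The UDP receptor P2ry6, with 78.8, 76.4 and 8.12 CPM in WT and 55.7 to 73.8 CPM in Nfkb2-/- cells, was low in WT replicate 3, as Entpd1 was. The ATP-gated channel P2rx4 differed by -0.39 on the log2 scale without overlap (adjusted p = 0.252, edgeR).

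Il10 was close to the detection floor in both genotypes. Il10 (ENSMUSG00000016529; chromosome 1, 131019845 to 131024974, plus strand) had 10, 13 and 4 counts in WT and 21, 7 and 0 counts in Nfkb2-/- libraries, 55 in all. This corresponds to 0.237, 0.400 and 0.138 CPM in WT and to 0.620, 0.231 and 0 CPM without Nfkb2, where the library with 0 counts allows up to 0.0561 CPM (3 counts). The highest and the lowest library were both Nfkb2-/-. The highest was replicate 1, the library with many weakly detected genes, and without that library Il10 fell below the count filter. The part of those weakly detected genes in the Il10 value was not tested. The estimate of 0.11 ± 1.37 on the log2 scale (SE) had a 95% interval from -3.10 to 3.33 and an adjusted p of 0.976 (edgeR), its sign turned with the processing, and no difference of Il10 was detectable at this depth. These floors cover counting error only.

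The receptor and the regulators of Il10 were far better covered. Of 17 genes, 14 were tested, 3 with a higher and 11 with a lower estimate, with a median of -0.23, and 5 had an unadjusted p under 0.05. Prdm1 met the criterion, as the only gene of the 14 and of the 70 pathway genes tested in all 5 lists. Among all tested genes 1.14% met it, so 1 of 70 is close to that share. Over the 70 genes, 28.6% had an unadjusted p under 0.05 (17.1% of all tested genes) and 32.9% were without overlap (24.7%). Prdm1, which encodes the repressor Blimp-1, a regulator of Il10 in T cells and of dendritic cell tolerance, fell from 51.9, 72.5 and 56.3 CPM in WT to 22.6, 19.1 and 18.9 CPM in Nfkb2-/- cells. All Nfkb2-/- libraries lay far below all WT libraries, and the fall was 1.57 ± 0.18 on the log2 scale (SE; 95% interval -2.0 to -1.15; adjusted p = 0.0277, edgeR). It was called in 10 of 15 alternatives, with adjusted p-values up to 0.163, and kept its direction in all 15.

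As the only pathway gene called, Prdm1 is shown with its promoter window (RefSeq, GRCm38.p6), in which capitals mark the aryl hydrocarbon receptor core on the opposite strand (CACGC):
Prdm1, chr10:44458699-44458998, minus strand: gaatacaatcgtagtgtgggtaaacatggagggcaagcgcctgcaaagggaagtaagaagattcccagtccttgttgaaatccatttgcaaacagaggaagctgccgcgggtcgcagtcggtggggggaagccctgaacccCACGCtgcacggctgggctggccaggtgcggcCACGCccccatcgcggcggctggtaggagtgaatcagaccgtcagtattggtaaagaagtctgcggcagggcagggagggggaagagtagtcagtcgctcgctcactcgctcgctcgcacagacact
The core occurred 109 and 77 bases before the start site, and the window held neither the NF-kB consensus nor a GC box.

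No other gene of the list met the criterion. On the log2 scale the differences were 0.02 for the ligand-binding chain Il10ra, -0.12 for the kinase Jak1 and -0.24 for the transcription factor Sp1, and Nfil3, a factor that promotes Il10 in T cells, had an estimate of -0.77 without overlap. Their adjusted p-values were 0.962, 0.766, 0.497 and 0.267 (edgeR). Outside that selection, and chosen after their values were seen, Ets2 and Maf had the lowest estimates beside Prdm1. Ets2, a transcription factor of the ETS family, stood at 160, 127 and 217 CPM in WT and at 74.0, 80.7 and 73.6 CPM in Nfkb2-/- libraries (adjusted p = 0.0559 in edgeR and 1.25e-04 in DESeq2). Maf, an activator of Il10 in macrophages and T cells, stood at 20.0, 25.1 and 1.24 CPM in WT and at 2.45, 2.84 and 2.54 CPM in Nfkb2-/- libraries. WT replicate 3, low in macrophage markers, thus lay below the Nfkb2-/- libraries. With all 6 libraries, Maf missed the criterion in edgeR (adjusted p = 0.198) and met it in DESeq2 (0.0141), and without WT replicate 3 it met it in edgeR. Il19, Il20 and Il24, relatives of Il10 that were also picked after their values were seen, were below the filter with 9, 9 and 22 counts in all.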

How the data were processed

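RNA of 3 WT and 3 Nfkb2-/- BMDC cultures was sequenced as polyA RNA. The authors deposited whole-number read counts per Ensembl gene and library, not normalized. The submitters' processing notes name HISAT2 and the build GRCm38 (mm10); the counting tool, annotation release and strand setting are not given in the sources used here. A deposited table joining the libraries differed in 0 values and was not used. Groups came from the sample labels.

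Genes with a GENCODE M21 name and at least 50 counts over the libraries were tested (21849 of 52073 named genes); IDs without a name held 1.01% to 1.75% of counts and stayed out. Counts were normalized by TMM and tested with edgeR 4.0.16 (glmQLFit, glmQLFTest; R 4.3.3) without covariates. DESeq2 1.42.0, limma 3.58.1 (voom), RLE, total counts, other filters, the replicate number as a block and leaving out libraries were alternatives. Genes were called at a fold above 1.2 with p-values adjusted by the Benjamini-Hochberg method below 0.05. The SE is the size of the log2 fold change divided by the square root of F. Levels per kilobase divide CPM by the merged exonic length of GENCODE M21. The fits were tested on simulated data, drawn with edgeR's own estimates of the spread of each gene. There DESeq2 called more unchanged genes than edgeR or voom did, and it also found more of the changed genes. Exact permutation tests used scipy 1.17.1, and figures matplotlib 3.10.9.

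The 8 genes, the pathway lists and the marker lists were chosen with earlier results of these data known. Named by rule were the 8 genes, per pathway list the called genes and the 4 with the highest mean level per length, the genes a result turns on among markers, and the 3 closest profiles of each of the 8 genes with at least 5 CPM; 1 gene that this rule names is not reported here, and other genes are marked in the text.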

Additional observations from a re-analysis of the deposited data

How the results depend on the processing

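Ido1, Ido2 and Arg2 were lower in every alternative that could be fitted, at -1.65 to -0.97 (Ido1), -2.76 to -1.18 (Ido2) and -1.55 to -1.11 (Arg2) on the log2 scale. Levels of Ido1, Arg2 and Prdm1 did not overlap between genotypes, so leaving out a library could hardly turn their signs. Of the 8 genes, 0 were called by edgeR, and 1, Arg2, by DESeq2 (-1.38), without the count filter (-1.42) and without WT replicate 2 (-1.55), so 0 to 1 with a library left out. All tested genes gave 248 calls (99 higher, 149 lower), against 1878 by DESeq2 (945 and 933), 488 by voom (245 and 243), 397 with filterByExpr (171 and 226), 1625 without filter (869 and 756), 459 with at least 10 counts in every library (189 and 270) and 0 to 1248 with a library left out; leaving out WT replicate 1 or any Nfkb2-/- library gave 0, with 2325 to 4088 at an unadjusted p under 0.05. Pathway calls were 1, and 13 by DESeq2, 6 by voom, 2 with total counts, 3 with filterByExpr, 11 without filter, 4 with at least 10 counts everywhere and 0 to 8 with a library left out (8 without WT replicate 2, 4 without WT replicate 3). With the replicate number as a block, 0 genes and 0 pathway genes were called, 3331 genes had an unadjusted p under 0.05 and Il10 was at -0.71; deviations of same-numbered libraries correlated at 0.262, 0.148 and 0.022, not every library correlated best with its own number, and the numbers were not taken to pair the libraries. Signs turned for Il10 with voom (-1.79) and without filter (-0.08), and without filter for Kynu (-0.03) and Nt5e (-0.01). Ranges with a library left out were -0.18 to 0.72 (Il10, 2 fits), -0.10 to 0.29 (Kynu), -0.27 to 0.69 (Entpd1) and -0.31 to 0.44 (Nt5e). Leaving out WT replicate 3 and Nfkb2-/- replicate 1 together, chosen after seeing the data, gave 908 calls, 6 pathway calls, and -0.16 for Il4i1, -0.22 for Entpd1 and -0.36 for Nt5e. The causes of these shifts were not tested. With longest transcripts, 4 in place of 3 genes reached 1 CPM per kb. Ido1, Ido2, Il4i1 and Il10 rest on 0 to 104 counts per library; how much of their spread is counting error was not tested.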

Other observations

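The genes whose profile over the 6 libraries was most like that of a member were named for the 3 members with a mean of at least 5 CPM, by the smallest root mean square difference of centred log2 CPM among 10645 genes. The closest to Kynu were the splicing factor gene Rbmx (difference 0.034), Utp11 (0.053) and the pseudogene Rpl23a-ps3 (0.059), all of which were highest in WT replicate 3. The closest to Entpd1 were the semaphorin coreceptor gene Nrp1 (0.160), Ksr2 (0.162) and the lysosomal lipase gene Lipa (0.182), and each was lowest in WT replicate 3. Lipa, for example, stood at 493, 451 and 91.9 CPM in WT and at 320 to 443 CPM in Nfkb2-/- libraries. The closest to Nt5e were the xanthine dehydrogenase gene Xdh (0.143), the interferon-induced Rsad2 (0.147) and the monocarboxylate carrier gene Slc16a6 (0.159), which were lowest in WT replicate 3 as well.

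Of the 10 dendritic cell genes, 6 had a higher and 4 a lower estimate, with a median of 0.13. Without overlap, 2 were higher and 1, Zbtb46, lower (log2 difference -0.54, adjusted p = 0.192, edgeR). Only Itgax, which encodes CD11c, was called. It rose from 160, 277 and 123 CPM in WT to 745, 769 and 716 CPM in Nfkb2-/- libraries (log2 difference 1.99, adjusted p = 0.0414, edgeR's quasi-likelihood test). Of the 18 mature dendritic cell markers, 4 had a higher and 14 a lower estimate, with a median of -0.7, and 12 had an unadjusted p under 0.05. Without overlap, 2 were higher and 8 lower, beside 12.7% and 12.0% of all tested genes. Ccl17 was called higher and Ebi3, Il15ra and Il12b lower. Of 7 cDC1 markers, 4 had a higher and 3 a lower estimate and none was called. Their summed level, 412, 210 and 571 CPM in WT and 140, 121 and 144 CPM without Nfkb2, was mostly that of Irf8 (379, 173 and 540 against 93.3, 84.0 and 107 CPM), while Clec9a (0.964 to 1.75 against 2.86 to 5.24 CPM) and Itgae (1.73 to 4.46 against 7.94 to 11.3 CPM) stood higher in every Nfkb2-/- library. Summed levels of B cell markers (1.51 to 9.99 CPM) and of T and NK cell markers (1.51 to 7.53 CPM) were highest in Nfkb2-/- replicate 1. Plasmacytoid dendritic cell markers summed to 149 to 192 CPM, granulocyte markers to 85.5 to 243 CPM, mast cell and basophil markers to 47.2 to 57.7 CPM, erythroid and megakaryocyte markers to 2.17 to 5.58 CPM and stromal and endothelial markers to 1.41 to 55.3 CPM.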
